A study of Arabidopsis thaliana with 32 samples.

Results

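The comparison set seedlings of the Arabidopsis thaliana mutant hy5 after 4 h of white light against the same mutant in the dark. Its members were the 2 libraries labelled hy5 at 4 h and the 3 labelled hy5 in the dark, 5 of the 32 libraries of the series, with all 19685 genes of the expression table. The mutant is homozygous (hy5/hy5) in the Columbia ecotype, and the labels do not name its allele. Each sample was a pool of 40 whole seedlings that had received 1 h of light to start germination and then grew for 3 days in the dark at 21 °C. The 4 h group then stood in simulated white light of 100 µmol m-2 s-1. For comparison, 3 libraries of hy5 after 1.5 h of the same light were used, and 2 dark and 2 4 h libraries of a line called SRDX here. That line carries 35S:FLASH-HY5-SRDX in the hy5/hy5 background, which is HY5 joined to the SRDX repression domain and driven by the viral 35S promoter. SRDX was the other genotype with 4 h libraries, and no wild type at 4 h was analysed here. The labels do not say that replicates were grown separately, so p-values measure only a spread between samples. That spread was pooled over the 12 groups of all 32 libraries and was not that of the 5 libraries alone. No dark library taken 4 h later was analysed here, so light and elapsed time cannot be told apart.

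HY5 is a bZIP transcription factor of photomorphogenesis, the program in which a seedling that reaches light stops stretching, opens its cotyledons and builds chloroplasts. In the dark the COP1/SPA ubiquitin ligase removes HY5 protein, and phytochromes and cryptochromes switch that ligase off in light. Seedlings without HY5 keep long hypocotyls in light, and the comparison describes the transcripts of such seedlings.

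Nuclear transcripts of the photosynthetic apparatus, of carotenoid synthesis and of repressors of light signalling rose from darkness to 4 h, while those of PORA and PORB, of protochlorophyllide reduction, and many of ethylene action, sugar starvation and shade growth fell. Of 19685 genes, 4831 rose (24.5%) and 5171 fell (26.3%) at a Benjamini-Hochberg adjusted p below 0.05 in limma, 50.8% in all, and the libraries did not overlap for 31.6% that were higher and 34.8% that were lower. At least 2-fold changes were fewer, with 1779 genes higher (9.04%) and 1089 lower (5.53%). A fit on the 5 libraries alone called 4500 genes higher and 4816 lower. All differences below are on the log2(CPM + 1) scale, which understates the change of low genes, and over all genes their median was -0.03. The 5 libraries held 10802612 to 15164664 reads, so that 3 reads corresponded to 0.206 to 0.273 CPM, a floor that covers counting error only. The 2 libraries at 4 h stood further apart than the other replicate pairs among the hy5 and SRDX libraries used here, which leave out SRDX at 1.5 h. Their variance was 20.7 times that of counting alone, a ratio that grows with depth, against 3.24 to 11.2 times for the other pairs used. Replicate 1 at 4 h had the higher value in 3138 of the 4831 risen genes and the lower value in 3609 of the 5171 fallen ones, and its part in the counts was tested by leaving it out. Where a 4 h library is left out here or below, its group keeps 1 library, which is assumed to vary like the other groups of the fit. As these are whole seedlings, fewer cells of a type and less RNA per cell cannot be told apart.

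**Figure D1:**
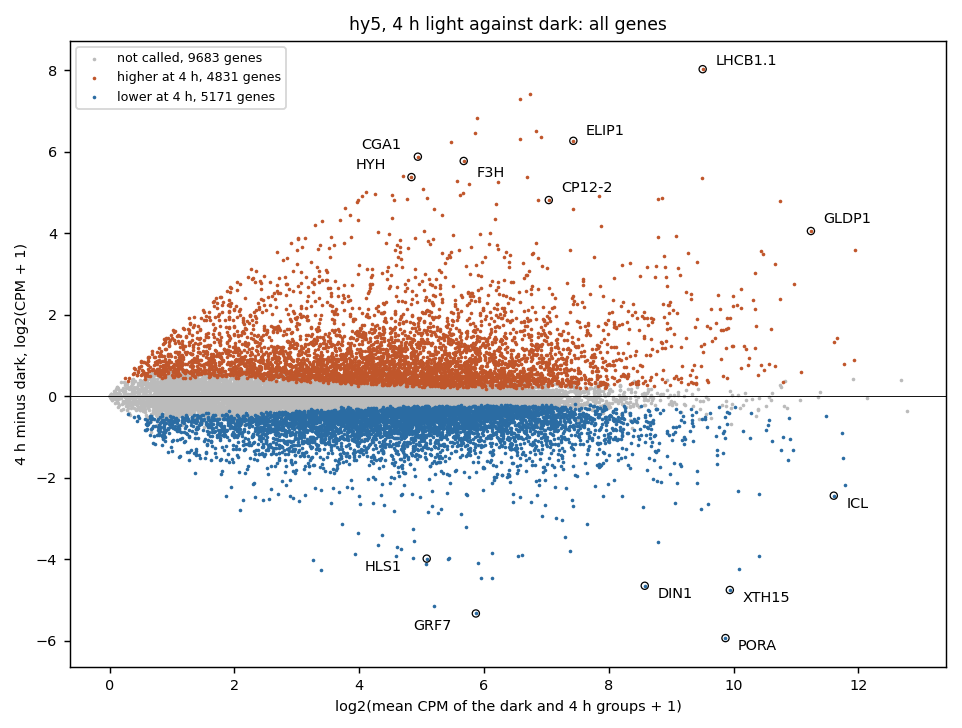
Each point is 1 of 19685 genes, with the log2 of the mean CPM of both groups plus 1 on the x axis and the difference of log2(CPM + 1) between 4 h light and dark in hy5 on the y axis. The 4831 genes called higher are red and the 5171 called lower are blue, and LHCB1.1 (8.03) and PORA (-5.93) mark the ends.

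The gene with the highest rise was LHCB1.1, a chlorophyll a/b-binding protein of the photosystem II antenna. LHCB1.1 has near-identical copies with which it may share reads, so its separate value is uncertain. It was at 5.14, 3.45 and 5.22 CPM in the dark libraries and at 1409 and 1482 CPM at 4 h. The groups did not overlap, and the difference was 8.03 ± 0.30 (log2, SE; limma adjusted p = 3.5e-19). A pair of genes annotated as pectin lyase-like proteins, a family of pectin-cleaving enzymes, stood among the 10 highest. AT1G60590 went from 0 to 0.414 CPM in the dark to 189 and 232 CPM, and AT1G48100 from 1.18 to 1.61 CPM to 159.6 and 215 CPM, by 7.42 and 6.31 log2 units. The thionin THI2.2 (7.29), the methyltransferase-annotated AT5G42760 (6.83), the antenna gene LHCB1.4 (6.50), the fatty acid desaturase FADA (6.45), the transporter-annotated AT3G21670 (6.36), the early light-induced protein ELIP1 (6.27) and the alternative NAD(P)H dehydrogenase NDA1 (6.23) completed the 10. Each of the 9 genes other than LHCB1.1 was under 5 CPM in every dark library and above 70 CPM in both 4 h libraries.

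The deepest fall was that of PORA, which with PORB encodes the protochlorophyllide oxidoreductases that hold the chlorophyll precursor in etiolated plastids. PORA was at 1817, 1805 and 1888 CPM in the dark and at 17.56 and 47.8 CPM at 4 h, a difference of -5.93 ± 0.27 (limma adjusted p = 2.1e-17). All 4 h values lay far below all dark values, but the 4 h libraries differed from each other, and the difference was -5.24 without replicate 1 and -6.63 without replicate 2. GRF7, a growth-regulating factor, fell from 111 to 115 CPM to 1.07 and 2.88 CPM, and AT5G57760, an uncharacterized protein, from 69.6 to 70.5 CPM to 0.686 and 1.36 CPM. XTH15 (-4.75), the starvation gene DIN1 (-4.65), the zinc finger gene AT5G44260 (-4.46), the ARM repeat gene AT3G18530 (-4.45), the B-box genes BBX23 (-4.27) and BBX17 (-4.12) and PORB (-4.23) were the other deepest falls. These 10 genes, like the 10 highest, were picked among called genes whose 4 h and dark libraries did not overlap. That both 4 h libraries lay below every dark library was therefore set by the rule.

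The sequences before 4 of the genes that the results turn on are shown here so that they can be set beside the expression values. They are the 250 bases upstream of the annotated gene start in the RefSeq annotation of TAIR10.1, written 5′ to 3′ on the gene's strand, and capitals mark each match to a searched motif. The motifs were the G-box CACGTG, the evening element AAATATCT, the CCA1-binding site AAAAATCT, the I-box core GATAAG and the E-box CACATG, each searched on both strands, so that a match on the other strand reads as its reverse complement. In these windows no match overlaps another.
LHCB1.1, chr1:10475970-10476219, minus strand: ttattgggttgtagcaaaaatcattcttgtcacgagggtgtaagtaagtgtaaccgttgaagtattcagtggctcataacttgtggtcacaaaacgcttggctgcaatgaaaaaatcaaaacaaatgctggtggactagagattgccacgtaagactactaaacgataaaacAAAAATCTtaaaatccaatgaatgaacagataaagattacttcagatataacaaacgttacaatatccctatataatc
ELIP1, chr3:8085670-8085919, minus strand: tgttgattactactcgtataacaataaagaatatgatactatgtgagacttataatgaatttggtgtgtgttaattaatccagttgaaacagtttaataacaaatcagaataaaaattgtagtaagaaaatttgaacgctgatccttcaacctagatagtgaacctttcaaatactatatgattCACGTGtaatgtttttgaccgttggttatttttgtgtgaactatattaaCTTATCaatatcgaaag
CGA1, chr4:13252834-13253083, plus strand: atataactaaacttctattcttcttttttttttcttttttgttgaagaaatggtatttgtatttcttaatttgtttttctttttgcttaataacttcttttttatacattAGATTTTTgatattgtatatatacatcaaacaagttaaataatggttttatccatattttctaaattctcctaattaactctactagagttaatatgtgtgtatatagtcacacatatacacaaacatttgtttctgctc
PORA, chr5:21992815-21993064, minus strand: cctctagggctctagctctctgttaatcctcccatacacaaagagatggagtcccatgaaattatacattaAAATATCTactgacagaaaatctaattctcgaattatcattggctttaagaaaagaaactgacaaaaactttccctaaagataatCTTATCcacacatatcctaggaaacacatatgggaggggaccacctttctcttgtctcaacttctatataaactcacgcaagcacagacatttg

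In these windows LHCB1.1 had a CCA1-binding site starting 78 bases before the gene start, and CGA1 one at 140 bases. ELIP1 had a G-box at 66 bases and an I-box core at 17 bases, and PORA an evening element at 179 bases and an I-box core at 94 bases. A match is a description of letters and not a shown binding site. Of the 19129 genes with such a window, 7.61% held a G-box, against 237 of 1764 genes that rose at least 2-fold (13.4%) and 79 of 1024 that fell at least 2-fold (7.71%). The I-box core was in 12.5% of all windows, 13.1% of those of the risen and 16.3% of those of the fallen genes. The evening element was in 4.89%, 5.67% and 6.74%, the CCA1-binding site in 6.80%, 7.54% and 5.86%, and CACATG in 11.3%, 14.2% and 13.8%, in the same order. Among the gene groups below, the I-box core had its highest share in starvation genes (8 of 13) and CACATG in Aux/IAA and SAUR genes (10 of 22). G-boxes were in 8 of 24 clock genes, 4 of 11 photoprotection genes, 4 of 14 flavonoid enzyme genes and 5 of 21 antenna genes. They were also in 3 of 12 phytochrome A and PIF genes, 2 of 10 photoreceptor genes and 2 of 7 heat shock genes. They were in 1 of 15 B-box genes, 1 of 13 carotenoid genes and none of the 10 genes of HY5 and its repressors, the 12 chloroplast regulators, the 9 cytokinin response regulators, the 9 nitrate and sulphate genes, the 22 expansin and XTH genes or the 14 ethylene and hook genes.

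Reads assigned to the HY5 gene itself were present in hy5. They stood at 21.4, 19.4 and 24.4 CPM in the dark, at 25.1 to 25.2 CPM in the 3 libraries at 1.5 h, and at 85.4 and 79.1 CPM at 4 h. The dark values overlapped those of the wild type Col in the dark (21.7 to 29.98 CPM), whereas at 1.5 h Col stood at 207 to 232 CPM. From dark to 4 h the HY5 reads rose by 1.88 ± 0.14 (limma adjusted p = 2.3e-12), and from 1.5 h to 4 h by 1.67 ± 0.14. These reads do not tell whether functional protein was made. HYH, the closest homolog of HY5 and a partner in light signalling, was at 0.154, 0.727 and 0.166 CPM in the dark and at 63.7 and 46.0 CPM at 4 h, a difference of 5.38 ± 0.17. It had a mean of 16.3 CPM at 1.5 h, so it kept rising (1.67 ± 0.17 from 1.5 h to 4 h).

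Genes of the repressors that act on HY5 rose too. Of 10 genes in this group, HY5 and HYH included, 9 rose and none fell, with a median of 2.19. SPA1, a partner of COP1 in the ubiquitin ligase, was at 27.5, 26.5 and 21.4 CPM in the dark and at 237 and 225 CPM at 4 h (3.16 ± 0.13). SPA3 rose by 3.16, SPA4 by 2.50, and COP1 itself from 29.7 to 31.7 CPM to 62.7 and 72.2 CPM (1.09 ± 0.10). RUP2, which returns the UV-B receptor UVR8 to its inactive dimer, rose from 3.32 to 4.22 CPM to 60.4 and 74.1 CPM (3.86 ± 0.24). DET1, another repressor of photomorphogenesis, was at 39.0 to 51.1 CPM in the dark and at 40.6 and 50.03 CPM at 4 h, with overlapping groups.

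**Figure D2:**
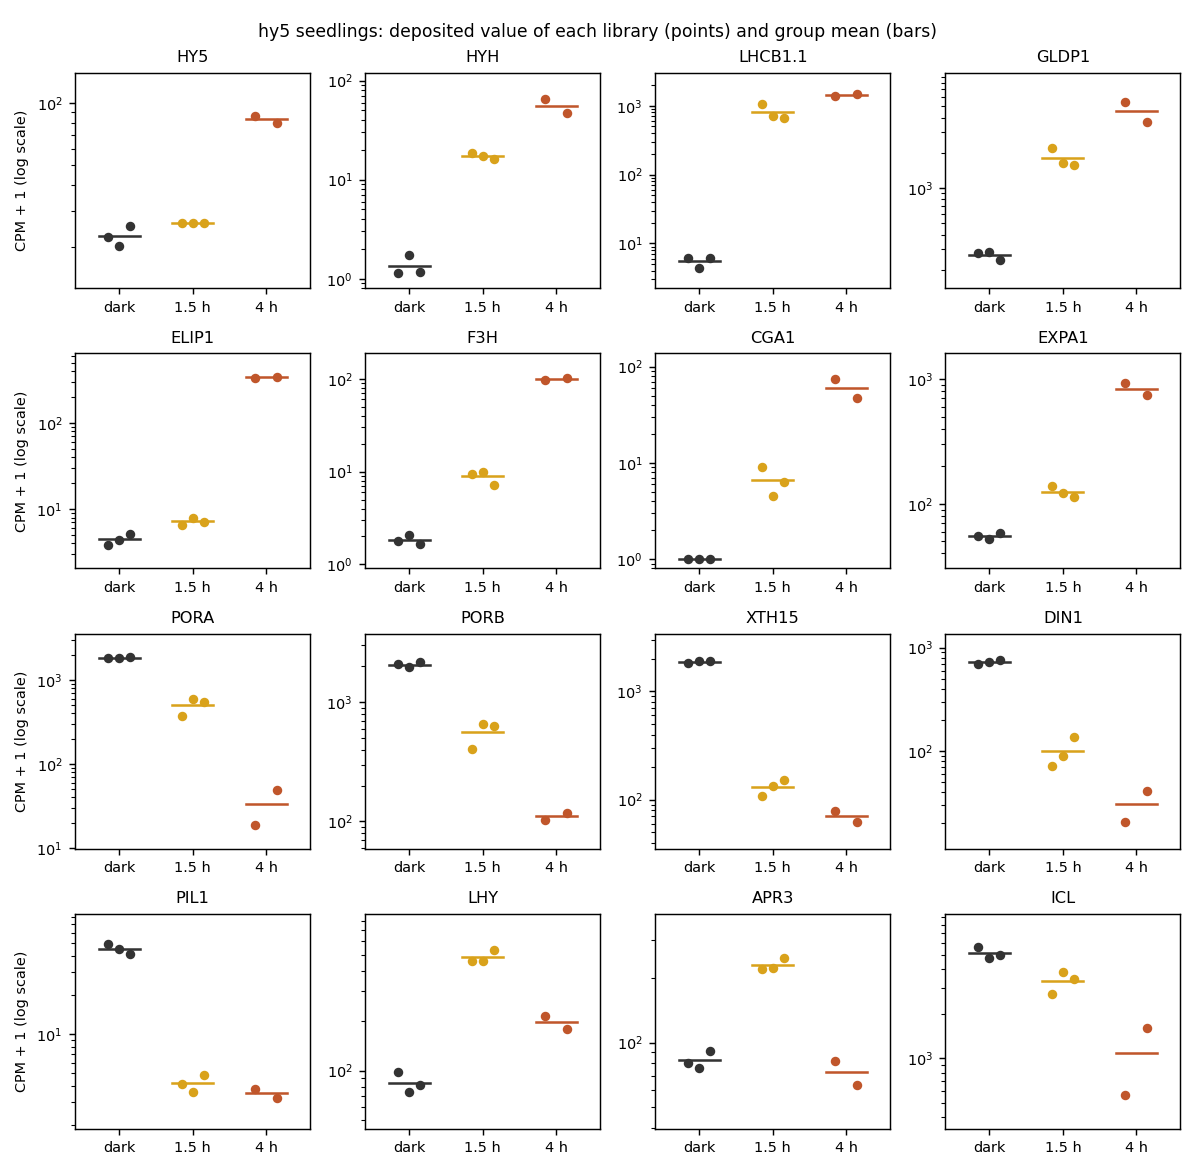
Each panel shows 1 gene in hy5, with CPM + 1 on a log scale for every library (points) and the group mean (bar) under each of the 3 light conditions. HY5 was flat to 1.5 h and higher at 4 h, ELIP1 rose mainly after 1.5 h, and LHY and APR3 were highest at 1.5 h.

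Photoreceptor genes moved both ways, with 4 of 10 higher and 3 lower, against 24.5% and 26.3% of all genes. PHYA, the phytochrome of etiolated seedlings, was at 1234, 1210.4 and 1220.2 CPM in the dark and at 474 and 501 CPM at 4 h (-1.32 ± 0.12). PHOT1 (-0.64) and UVR8 (-0.51) also fell. PHYE (1.27), the phototropin PHOT2 (1.22), PHYB (0.67) and CRY1 (0.24) rose. The call for CRY1 was lost without either of the 4 h libraries (adjusted p = 0.061 and 0.063).

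The next 12 genes belong to phytochrome A nuclear import and its control, or to the PIFs and the related PIL1 and HFR1. Several PIFs are bHLH factors that promote dark growth. Of the 12 genes, 5 rose and 5 fell, against 24.5% and 26.3% of all genes. PIL1 was at 48.1, 44.3 and 40.4 CPM in the dark and at 2.78 and 2.196 CPM at 4 h, a difference of -3.70 ± 0.15. FHY1 and FHL, which carry phytochrome A into the nucleus, fell by 2.39 and 1.24, and PIF3 and HFR1 by 1.02 and 0.76 on the log2 scale. PIF7 rose from 0.414 to 0.909 CPM to 27.1 and 15.6 CPM (3.70 ± 0.22). PIF8 (1.64), PIF5 (1.45), PIF4 (1.41) and PIF1 (0.51) also rose. Members of the PIF family therefore went in opposite directions. Of 7 shade markers, 6 fell and none rose (median -1.23), led by the homeodomain gene HB-2, which was at 98.1, 95.0 and 87.2 CPM in the dark and at 9.99 and 8.65 CPM at 4 h (-3.20 ± 0.11). The fall of PAR2 (-0.62) was lost as a call without 4 h replicate 1.

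B-box zinc finger proteins are partners and antagonists of HY5. Of 15 genes, 10 rose and 3 fell, with a median of 1.55. BBX25, a repressor in light signalling, was at 1.84, 2.00 and 1.66 CPM in the dark and at 111 and 97.9 CPM at 4 h (5.22 ± 0.14). BBX30 and BBX16 had no read in any dark library and 17.2 and 17.8 CPM, and 8.42 and 4.12 CPM, at 4 h. Against a floor of 3 reads per library (0.273 CPM) their means were at least 64.1-fold and 23.0-fold higher, and the group median is unchanged with both genes at these bounds. BBX32 (5.02), BBX31 (4.76) and BBX18 (3.82) were other large rises. BBX23 fell from 17.3 to 20.2 CPM to 1 read in replicate 1 and none in replicate 2, and BBX20 (-2.43) and BBX21 (-1.5), positive regulators, fell too.

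All 21 measured antenna genes rose, with a median of 2.75. The smallest rise was that of LHCB4.2, at 579, 580.1 and 692 CPM in the dark and 1202 and 1135 CPM at 4 h (0.92 ± 0.18). LHCA1 of photosystem I went from 112 to 131 CPM to 3360.5 and 3219.5 CPM (4.78 ± 0.22), and LHCB1.3, from 1506 to 2123 CPM to 4712 and 4683 CPM (1.42 ± 0.35). The LHCB1 and LHCB2 genes are near-identical copies whose reads may be split between them, so their separate values are uncertain. None of the 21 calls was lost when any 1 of the 5 libraries was left out.

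All 22 nuclear genes of photosystem subunits rose as well, with a median of 1.91. PSBO2 of the water-splitting complex went from 78.6 to 88.8 CPM to 902 and 655 CPM (3.20 ± 0.15). PSBS, the sensor of heat dissipation, was at 318, 323 and 333 CPM in the dark and at 1599.7 and 1272 CPM at 4 h (2.13 ± 0.13). The smallest rise, of PSAE-2 (0.56), was lost as a call without 4 h replicate 1. Replicate 1 was the higher 4 h library in 22 of these 22 genes and in 17 of 21 antenna genes.

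Of 18 genes of Rubisco and the Calvin cycle, 15 rose and none fell, with a median of 1.42. Rubisco activase, RCA, was at 604, 552 and 630.1 CPM in the dark and at 8317 and 6269.8 CPM at 4 h (3.6 ± 0.18). CP12-2, a small regulator of the cycle, rose from 6.76 to 9.09 CPM to 269 and 236 CPM (4.82 ± 0.17), while its homolog CP12-1 stood at 537 to 685 CPM in the dark and 539 and 643 CPM at 4 h. RBCS1A, the main Rubisco small subunit gene, was already at 5219 to 6224 CPM in the dark and reached 7766 and 7233 CPM, without passing the test (0.40 ± 0.22, limma adjusted p = 0.12). RBCS1B, RBCS2B and RBCS3B share nearly identical sequence, and their values are uncertain. The call for PRK (0.49) was lost without 4 h replicate 1.

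Photorespiration salvages the product of Rubisco's reaction with oxygen, and 14 of its 15 measured genes rose (median 1.73). GLDP1, a P protein of glycine decarboxylase, was at 279.5, 283 and 242 CPM in the dark and at 5481 and 3642 CPM at 4 h (4.06 ± 0.16). The hydroxypyruvate reductase HPR1 rose by 3.31, the serine hydroxymethyltransferase SHM1 by 2.71 and the aminotransferase GGT1 by 2.64. GLYK, the last enzyme of the cycle, was the exception at -0.38 ± 0.14, and its call was lost without dark replicate 3 or without 4 h replicate 2. GOX1 and GOX2 are close copies and their separate values (2.48 and 1.70) are uncertain.

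**Figure D3:**
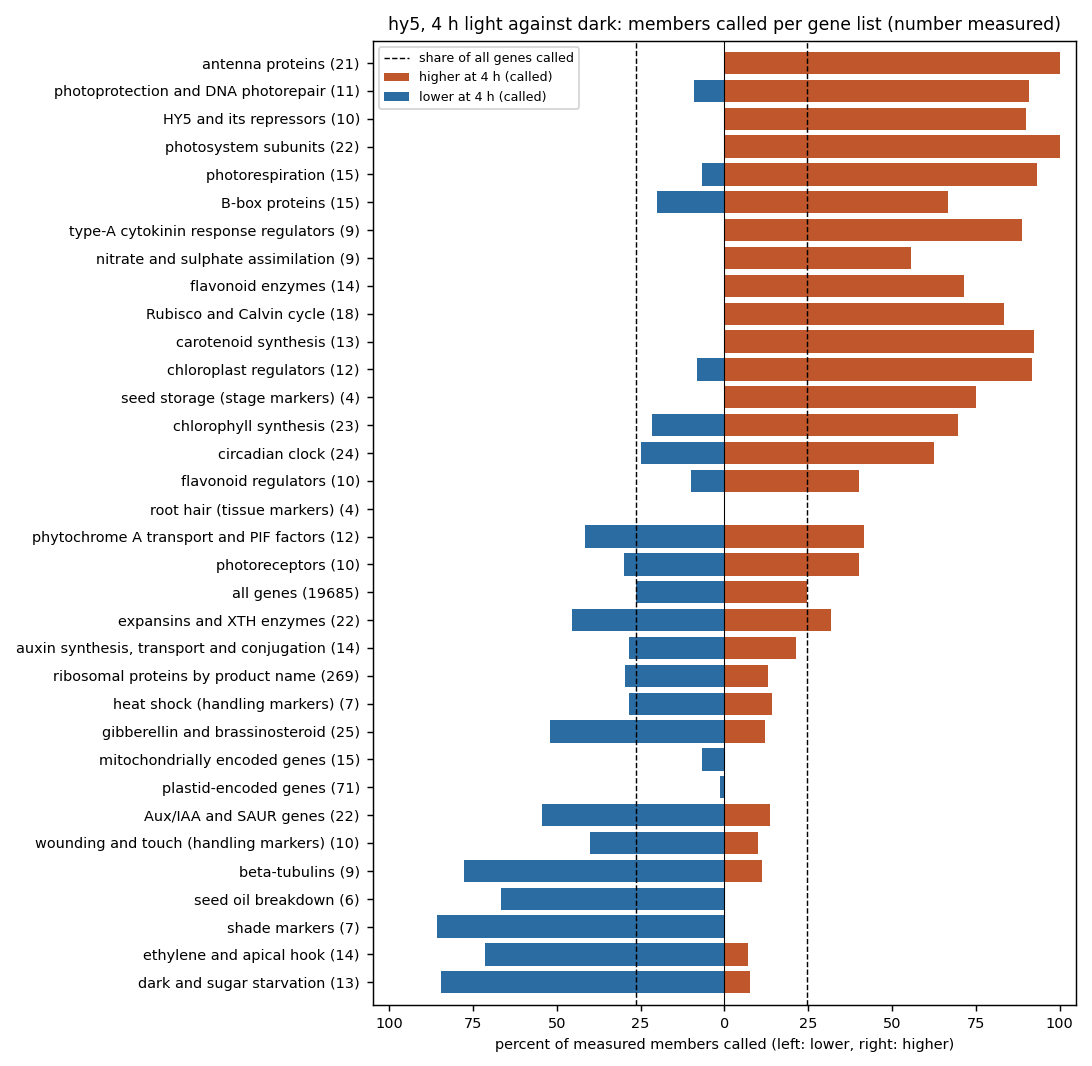
For each gene group (number measured in brackets), bars give the percent of measured genes called higher (right) and lower (left) at 4 h in hy5. Dashed lines mark the shares over all genes, 24.5% higher and 26.3% lower. Antenna and photosystem genes were all higher, and starvation, shade and ethylene genes were mostly lower.

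In chlorophyll synthesis, 16 of 23 genes rose and 5 fell (median 0.77). CHLH, the large subunit of magnesium chelatase, was at 313, 265 and 271 CPM in the dark and at 2367 and 2235 CPM at 4 h (3.02 ± 0.13). Its activator GUN4 (2.47), the chlorophyll b-forming oxygenase CAO (2.46), the first committed enzyme HEMA1 (2.22) and the cyclase subunit CRD1 (2.14) rose. The 3 protochlorophyllide oxidoreductases split. PORB was at 2081, 1974 and 2163 CPM in the dark and at 102 and 116 CPM at 4 h (-4.23 ± 0.18), beside the fall of PORA, whereas PORC went from 32.4 to 36.6 CPM to 118 and 98.1 CPM (1.60 ± 0.14). The geranylgeranyl reductase GGR fell by 0.70 on the log2 scale. The calls for HEMA2 (-0.39) and HEMB1 (0.33) were lost without 4 h replicate 1 and that for FLU (-0.31) without 4 h replicate 2.

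Carotenoids protect chlorophyll from excess light. Of 13 genes of their synthesis, with the carotenoid-cleaving enzyme gene CCD4 counted among them, 12 rose (median 1.28). Phytoene synthase, PSY, the entry enzyme, was at 71.5, 65.8 and 68.8 CPM in the dark and at 347 and 289.8 CPM at 4 h (2.19 ± 0.11). Zeaxanthin epoxidase, ZEP, went from 53.8 to 57.5 CPM to 498 and 567 CPM (3.22 ± 0.10). LUT1 was the exception, at 23.7 to 29.6 CPM in the dark and 35.9 and 28.1 CPM at 4 h (0.24 ± 0.11, limma adjusted p = 0.076). None of the 12 calls was lost when 1 library was left out.

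Of 12 nuclear regulators of chloroplast development, 11 rose and 1 fell (median 1.26). CGA1, a GATA factor that promotes chloroplast formation, had no read in any dark library, 3.5 to 8.13 CPM at 1.5 h, and 72.8 and 46.0 CPM at 4 h. Against 3 reads per library its mean was at least 218-fold higher than in the dark. SIG5, a light-responsive sigma factor of the plastid RNA polymerase, rose from 2.07 to 2.82 CPM to 72.9 and 78.4 CPM (4.46 ± 0.18), and the other 5 sigma factor genes rose by 0.55 to 1.97. GLK2 (1.86) and GLK1 (1.31), factors that activate photosynthesis genes, rose. HMR fell by 0.48 on the log2 scale, a call lost without 4 h replicate 2, and the rise of GNC (0.39) was lost without dark replicate 3 or 4 h replicate 1.

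Photoprotection and DNA photorepair genes rose in 10 of 11 cases (median 2.43). ELIP1, an early light-induced protein of the thylakoid, was at 2.84, 3.36 and 4.14 CPM in the dark, at 5.59 to 6.95 CPM at 1.5 h, and at 336 and 343 CPM at 4 h. The difference was 6.27 ± 0.39 from the dark and 5.56 ± 0.39 from 1.5 h, the highest rise between the light times. ELIP2 rose by 3.54 ± 0.27 from 10.8 to 12.7 CPM to 122 and 177 CPM. The photolyase gene PHR1 rose from 0 to 0.538 CPM to 14.1 and 13.5 CPM, whereas the other photolyase UVR3 fell from 4.84 to 5.45 CPM to 1.50 and 1.85 CPM (-1.2 ± 0.18). GPX7, a plastid glutathione peroxidase, had 1 read in each dark library and 5.07 and 4.60 CPM at 4 h. The rise of MSRB6 was 2.77, but 2.01 without 4 h replicate 1 and 3.52 without replicate 2.

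In flavonoid synthesis, 10 of 14 enzyme genes rose and none fell (median 1.43). F3H, flavanone 3-hydroxylase, was at 0.768, 1.09 and 0.663 CPM in the dark, at a mean of 7.87 CPM at 1.5 h and at 97.3 and 101 CPM at 4 h (5.77 ± 0.22). Chalcone synthase, CHS, the entry enzyme, rose from 2.40 to 2.99 CPM to 35.4 and 28.8 CPM (3.13 ± 0.27). The genes of the anthocyanin branch, DFR and LDOX, stayed at or under the floor of 3 reads in all 5 libraries. 4CL3 stood at 8.99 and 2.95 CPM at 4 h and its rise of 2.00 became 1.33 without replicate 1, and the rise of UGT78D1 (0.78) was lost as a call without replicate 1. Of 10 regulators, 4 rose, among them MYB75 (1.37, to 1.78 and 2.13 CPM), and MYBL2 fell (-0.65), a call lost without 4 h replicate 1. The flavonol activators MYB11 and MYB12 were at 0 to 0.618 CPM in the 5 libraries.

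Clock genes were higher in 15 of 24 cases and lower in 6 (median 0.75). LHY, a morning factor, was at 97.1, 72.8 and 80.7 CPM in the dark and at 213 and 178 CPM at 4 h (1.22 ± 0.11), and its partner CCA1 rose by 1.56. CDF1 (3.16), LNK1 (2.67), PRR9 (2.21) and RVE1 (1.91) were the largest rises. Among the evening genes, GI rose (1.13) and BOA (-1.76), PRR3 (-1.08), ELF3 (-1.05), TOC1 (-1.01) and LUX (-0.66) fell. The clock phase at collection cannot be told apart from the light treatment. Leaving out 1 library ended the calls of PRR7 (0.35), ELF4 (0.96), ZTL (0.40) and LKP2 (-0.31); ELF4 stood at 4.00 and 11.4 CPM at 4 h and rose by 0.30 without replicate 2.

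Ethylene and apical hook genes fell in 10 of 14 cases, with a median of -1.41. HLS1, which keeps the apical hook closed, was at 59.7, 58.5 and 69.9 CPM in the dark and at 2.43 and 3.71 CPM at 4 h (-3.98 ± 0.20). The ethylene receptor genes ETR2 (-2.67) and ERS1 (-1.42), the synthesis gene ACS5 (-2.16) and the F-box gene EBF2 (-1.96) fell. ACS6 rose by 0.44, a call lost without dark replicate 1, dark replicate 2 or 4 h replicate 2, and the fall of ACO4 (-0.46) was lost without dark replicate 3 or 4 h replicate 2.

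Auxin-responsive Aux/IAA and SAUR genes fell in 12 of 22 cases and rose in 3 (median -0.50). IAA29 was at 42.7, 38.1 and 39.4 CPM in the dark and at 5.28 and 4.46 CPM at 4 h (-2.81 ± 0.19), and IAA19 fell by 1.3 on the log2 scale. SAUR14 and SAUR50 went the other way. SAUR14 rose from 3.45 to 4.64 CPM to 69.9 and 59.4 CPM (3.75 ± 0.23), and SAUR50 by 1.34. SAUR19 to SAUR24 are near copies and their single values are uncertain. The third rise, of SAUR16 (0.59), was lost as a call without 4 h replicate 1. Of 14 genes of auxin synthesis, transport and conjugation, 3 rose and 4 fell, close to the shares over all genes (24.5% and 26.3%). The falls of TAA1 and AUX1 were -0.287 and -0.289 without 4 h replicate 2, and their calls were lost. The conjugating enzyme gene GH3.10 rose by 1.77 and GH3.3 fell by 1.14 on the log2 scale.

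Of 25 gibberellin and brassinosteroid genes, 13 fell and 3 rose (median -0.44). The brassinosteroid synthesis gene CPD was at 284, 280.5 and 323 CPM in the dark and at 84.8 and 103 CPM at 4 h (-1.65 ± 0.15). The gibberellin synthesis gene GA3ox1 fell by 1.35 and the DELLA gene GAI by 1.2 on the log2 scale. The fall of GA2ox6 (-0.87) rested on 4 h replicate 1, without which it was -0.27. The falls of GID1A, ROT3 and GA20ox2 and the rise of BR6OX1 also lost their calls without that library. The call of ROT3 was also lost without dark replicate 2 or 4 h replicate 2. The other rises were those of GA2ox1 (1.38, to 2.21 and 3.02 CPM) and GA3ox2 (1.37, to 1.36 and 1.99 CPM). Type-A response regulators of cytokinin rose in 8 of 9 cases (median 1.49), led by ARR7, which went from 1.00 to 1.49 CPM to 18.3 and 19.3 CPM (3.1 ± 0.26), and by ARR16 (2.94). The smallest of these rises, of ARR8 (0.32), was lost without 4 h replicate 1.

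Cell wall genes moved in both directions, with 7 of 22 expansin and XTH genes higher and 10 lower, against 24.5% and 26.3% of all genes. XTH15, a xyloglucan endotransglucosylase, was at 1827, 1928 and 1919.8 CPM in the dark, fell to a mean of 129.8 CPM at 1.5 h and stood at 77.4 and 61.8 CPM at 4 h (-4.75 ± 0.16). EXPA1, an expansin, went from 51.5 to 57.4 CPM to 926 and 739 CPM (3.90 ± 0.14), and EXPA10 from 9.45 to 15.7 CPM to 115 and 198 CPM (3.47 ± 0.21). XTH5 (-2.45), XTH24 (-1.81) and XTH30 (-1.28) fell. The calls of XTH19 (-0.88) and XTH33 (-0.65) were lost without 4 h replicate 1 and replicate 2, respectively. Of 9 beta-tubulin genes, 7 fell and TUB7 rose (median -0.56). TUB1 was at 241, 233 and 226 CPM in the dark and at 102 and 106 CPM at 4 h (-1.16 ± 0.08), while TUB2 and TUB3 are near copies with uncertain values.

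Genes that are induced in prolonged darkness and sugar starvation fell in 11 of 13 cases, with a median of -1.67. DIN1 was at 699.7, 733 and 761 CPM in the dark and at 19.6 and 40.4 CPM at 4 h (-4.65 ± 0.28), and DRM1, a dormancy-associated gene, went from 2337 to 2948 CPM to 119 and 236 CPM (-3.91 ± 0.26). BCAT2, which breaks down branched-chain amino acids, fell by 3.80 and the asparagine synthetase ASN1 by 2.72 on the log2 scale. DIN9 rose by 0.87. Replicate 1 at 4 h was lower than replicate 2 in 12 of the 13 genes, and the calls of TPS8, TPS9 and TPS10 were lost without it, that of TPS10 also without any 1 dark library.

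Of 6 genes that turn seed oil into sugar, 4 fell and none rose (median -1.11). Isocitrate lyase, ICL, of the glyoxylate cycle was at 5636, 4783 and 5025 CPM in the dark and at 560.1 and 1601 CPM at 4 h. The difference of -2.44 ± 0.26 became -1.68 without 4 h replicate 1 and -3.19 without replicate 2. PCK1, which starts gluconeogenesis, fell from 2223 to 2356 CPM to 322 and 568 CPM (-2.40 ± 0.17), and malate synthase, MLS, by 1.44 on the log2 scale. Of 9 genes of nitrate and sulphate assimilation, 5 rose and none fell (median 1.43). The nitrate reductase NIA2 was at 398, 343 and 389.8 CPM in the dark and at 1197 and 1429 CPM at 4 h (1.79 ± 0.17), and the nitrite reductase NIR1 rose by 1.91 ± 0.16. The sulphate-reducing enzyme gene APR2 rose by 1.43, whereas APR3 stood at 75.0 to 90.6 CPM in the dark and 81.0 and 62.5 CPM at 4 h.

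**Figure D4:**
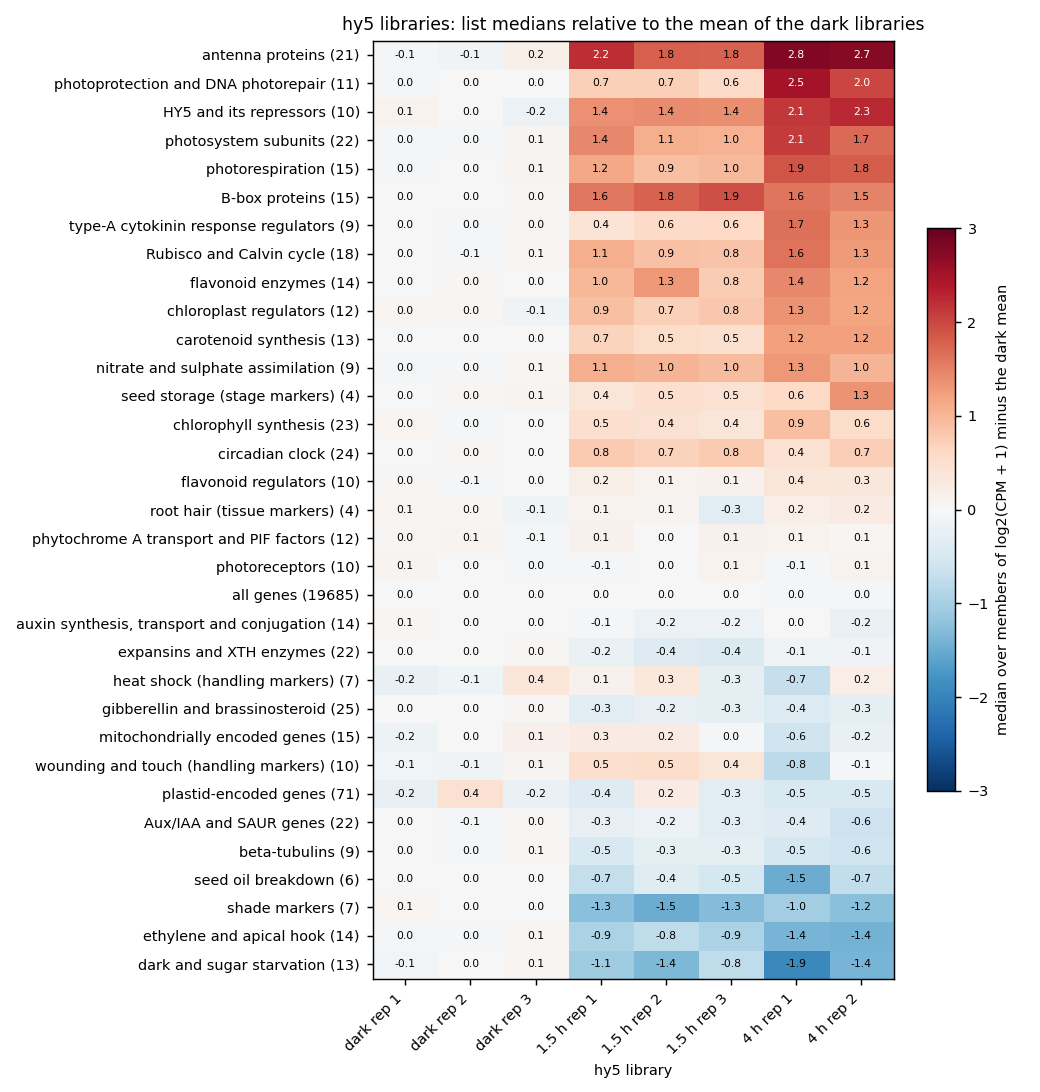
Gene groups run down (number measured in brackets) the y axis and the 8 hy5 libraries along the x axis, and each cell is the median over the group of log2(CPM + 1) minus the mean of the dark libraries. Antenna genes reached 2.8 and 2.7 in the 4 h libraries, while seed oil genes stood at -1.5 in replicate 1 and -0.7 in replicate 2.

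Markers of tissue and handling moved in both directions or were not called, and 3 of 4 stage markers rose. The summed level of 4 root hair markers was 2.74 to 4.00 CPM in the dark and 4.32 to 4.57 CPM at 4 h, and none was called. Of 7 heat shock genes, 1 was called higher and 2 lower, against 24.5% and 26.3% of all genes. Their sums were 540.2 to 789 CPM in the dark and 530.0 to 811 CPM at 4 h. Their calls depended on the 4 h libraries: HSFA2 was lost without replicate 2, and HSP17.4 (-1.56, and -0.97 without replicate 1) and HSP17.6II without replicate 1. Of 10 wounding and touch genes, 1 rose and 4 fell. Their sums were 194 to 227 CPM in the dark, 285 to 325 CPM at 1.5 h and 108 to 172 CPM at 4 h. The fall of ZAT12 (-0.71) rested on replicate 1 (10.3 CPM, against 35.6 CPM in replicate 2) and was 0.14 without it, and those of JAZ1 and ERF104 were lost without it. Of 4 seed storage markers 3 rose and none fell (median 0.98), and they summed to 1.82 to 3.56 CPM in the dark and 10.4 to 16.1 CPM at 4 h. The oleosin genes OLEO2 (2.23) and OLEO1 (1.22) kept their calls without any 1 library, and the rise of CRC (0.74) was lost without dark replicate 3 or 4 h replicate 2 (0.14). The part of these markers in the other differences was not tested.

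Genes of the organelle genomes did not follow the nuclear photosynthesis genes. Of 71 plastid-encoded genes, 1 fell (ATCG00360, -0.90) and none rose, with a median of -0.45, and of 15 mitochondrial ones ATMG00160 fell (-0.71). The libraries were made from poly(A) RNA, which captures organelle transcripts poorly. Plastid genes made up 0.308 to 0.529% of the summed values in the dark and 0.247 to 0.258% at 4 h. Of 269 genes annotated as ribosomal proteins, 35 rose and 80 fell (median -0.16), against 24.5% and 26.3% of all genes.

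The difference between 4 h and 1.5 h asked which transcripts were still moving. It shares the 4 h libraries with the comparison above, so the values are set side by side only. From 1.5 h to 4 h, 2564 genes rose (13%) and 2506 fell (12.7%), 25.8% in all. These counts rested on 4 h replicate 1, without which 1481 rose and 1070 fell. From dark to 1.5 h, 3219 genes had risen (16.4%) and 3089 had fallen (15.7%), 32% in all. All 21 antenna genes had risen by 1.5 h, and 10 of 21 rose further, as LHCB1.1 did from 675 to 1045 CPM to 1409 and 1482 CPM. Photorespiration (12 of 15), photosystem (16 of 22) and carotenoid genes (10 of 13) also held genes that rose further. Replicate 1 was the higher 4 h library in 14 of 15 photorespiration and 22 of 22 photosystem genes, and these group counts were not taken without it. After ELIP1, the highest rises were those of CYP707A2 (4.31), which inactivates abscisic acid, AT3G28220 (4.3), AT1G68570 (4.21) and AT1G62510 (3.99). CYP707A2 was at 0.0909 to 0.332 CPM in the dark, 1.21 to 1.98 CPM at 1.5 h, and 50.2 and 49.1 CPM at 4 h.

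Other genes were higher at 1.5 h than at 4 h. Of 24 clock genes, 10 were lower at 4 h than at 1.5 h and 2 higher, and LHY stood at 454 to 532 CPM at 1.5 h against 213 and 178 CPM at 4 h (-1.3 ± 0.11). APR3 was at 219 to 248 CPM at 1.5 h and back at 62.5 and 81.0 CPM at 4 h (-1.67 ± 0.18). Of the wounding and touch genes, 6 of 10 were lower at 4 h than at 1.5 h. PORA (-4.03), PORB (-2.33), AT4G37220 (-2.22), AT3G18530 (-2.17) and AT1G19530 (-2.09) fell furthest between the light times. AT1G19530 stood at 16.1 and 37.7 CPM at 4 h, and its difference from the dark of -3.45 was -2.86 without 4 h replicate 1.

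The response of hy5 was set against that of SRDX by testing the difference of the differences, which shares no library. It was higher in hy5 for 1129 genes (5.74%) and lower for 854 (4.34%), 10.1% in all. These counts fell to 738 and 504 without SRDX 4 h replicate 1 and to 688 and 483 without SRDX 4 h replicate 2. SRDX itself had 4540 genes higher (23.1%) and 4636 lower (23.6%) at 4 h, 46.6% in all.

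Among antenna genes 1 of 21 differed between the lines, while several other light-induced groups held genes that rose more in hy5. The difference was positive and called for 8 of 10 genes of HY5 and its repressors, 10 of 15 photorespiration genes and 8 of 13 carotenoid genes. The same held for 6 of 12 chloroplast regulators, 5 of 11 photoprotection genes and 5 of 15 B-box genes, against 5.74% of all genes. No gene of these groups had a negative called difference. LHCB1.1 rose by 8.03 in hy5 and by 7.75 in SRDX, a difference of 0.28 ± 0.44. ELIP1 went from 1.33 and 1.76 CPM to 10.01 and 14.9 CPM in SRDX, against 336 and 343 CPM at 4 h in hy5, and the difference was 3.88 ± 0.58 (limma adjusted p = 6.0e-05). CGA1 reached 9.27 and 11.2 CPM in SRDX, and the difference was 2.64 ± 0.44. F3H reached 13.2 and 13.1 CPM, with a difference of 2.3 ± 0.32. The HY5 value of 2.04 ± 0.21 counts reads of the transgene, and HY5 reads stood at 969 and 1082 CPM in the dark and 908 and 925 CPM at 4 h in SRDX.

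Nitrate and sulphate assimilation, another group with rises and no fall in hy5, had 4 of 9 differences negative and called and 1 positive. The shares over all genes were 4.34% and 5.74%. APR3 rose in SRDX from 28.7 and 42.8 CPM to 97.3 and 91.7 CPM and was not called in hy5 (difference -1.60 ± 0.26). In SRDX, NRT2.1 stood at 0 CPM in both dark libraries and at 0.134 and 0.130 CPM at 4 h, under the floor of 3 reads. Its positive difference (1.48) therefore rests on values near 0 in SRDX, and it changed sign in edgeR. The differences of APR1 (-1.09), APR2 (-0.82), NRT1.1 (-0.74) and NRT2.1 were also called. All of these 4 calls were lost without hy5 4 h replicate 2, those of APR1 and APR2 also without hy5 dark replicate 3, SRDX dark replicate 1 or SRDX 4 h replicate 1, that of APR2 without hy5 dark replicate 1, and that of NRT1.1 without SRDX dark replicate 2.

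Growth genes also held genes with a lower response in hy5. The difference was negative and called for 7 of 22 expansin and XTH genes, 5 of 9 beta-tubulins and 3 of 7 shade markers. The same held for 3 of 14 ethylene and hook genes, 4 of 22 Aux/IAA and SAUR genes and 4 of 25 gibberellin and brassinosteroid genes. Over all genes, 4.34% of the differences were negative and called and 5.74% positive and called. In all of these groups 1 call was in the positive direction (ROT3). SAUR9 fell in hy5 from 11.7 to 14.1 CPM to 4.00 and 2.88 CPM, while in SRDX it stood at 11.3 and 8.25 CPM in the dark and 17.1 and 14.2 CPM at 4 h (difference -2.26 ± 0.27). XTH19 was at 121 and 107 CPM and then at 191 and 229 CPM in SRDX, against its fall in hy5 (-1.75 ± 0.32). PORA fell less far in SRDX, to 69.9 and 112 CPM (-1.56 ± 0.39), as did GRF7, to 4.64 and 8.82 CPM (-1.95 ± 0.34). Ribosomal protein genes had 43 negative and 1 positive call among 269. In the starvation group 5 of 13 differences were positive and called and that of DRM1 negative, and ASN1 fell from 899 and 1369 CPM to 79.0 and 71.1 CPM in SRDX.

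The lowest differences belonged to genes that rose in SRDX and were at or near 0 in hy5. AT1G14960, of a polyketide cyclase-like family, was at 0.332 to 1.27 CPM in the 5 hy5 libraries and at 37.6 and 37.4 CPM in SRDX at 4 h (-4.15 ± 0.36). The genes AT5G36130, CYP716A2 and PEN3, the last annotated as a triterpene synthase, had 0 to 0.143 CPM in hy5 and 7.86 to 11.7 CPM in SRDX at 4 h. At the other end, BGLU6, a beta-glucosidase, rose from 0.384 to 0.818 CPM to 17.5 and 17.8 CPM in hy5 and reached 2.28 and 1.43 CPM in SRDX (2.78 ± 0.24). CYP82C2 had under 1 CPM in all 5 hy5 libraries and fell from 183 and 140.3 CPM to 34.3 and 27.9 CPM in SRDX, a difference of 2.63 ± 0.33.

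**Figure D5:**
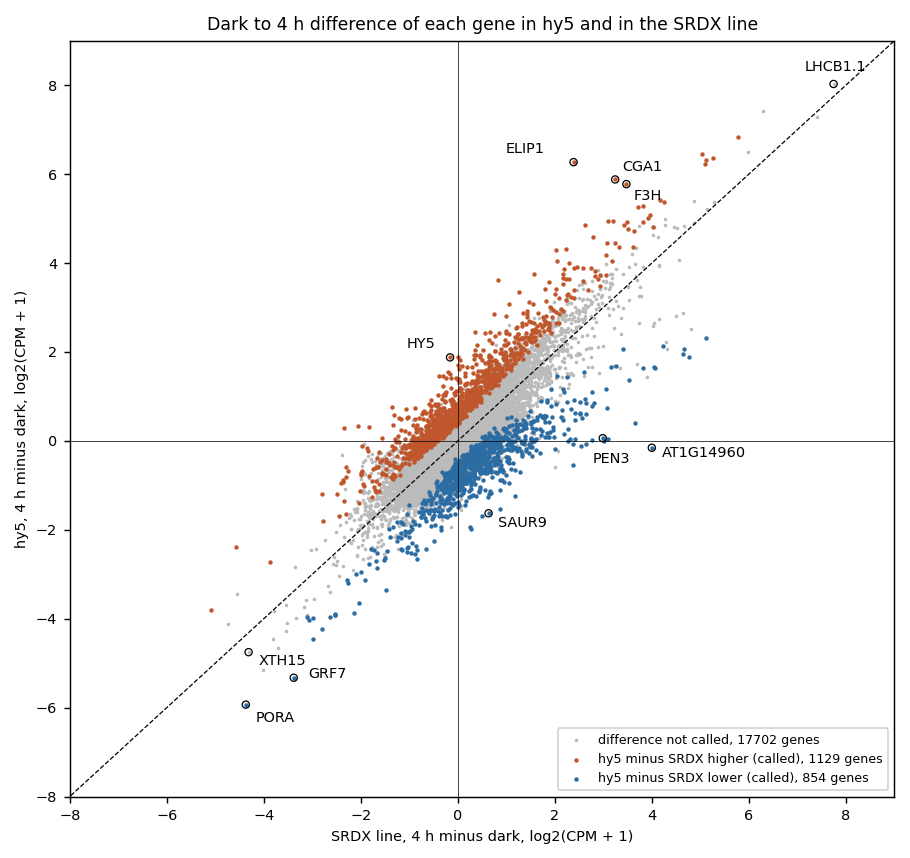
Each point is 1 gene, with the 4 h minus dark difference of log2(CPM + 1) in SRDX on the x axis and in hy5 on the y axis, and the dashed line marks equal differences. The 1129 genes with a higher difference in hy5 are red and the 854 with a lower one blue, and LHCB1.1 lies near the line while ELIP1, CGA1 and F3H lie above it.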

How the data were processed

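Stranded poly(A) libraries of whole seedlings were sequenced, per the labels' protocols. Per the submitters' processing notes the tools were edgeR 3.16.5, HTSeq 0.6.0, Bowtie2 2.2.2.0, TopHat2 2.0.11, SAMtools 0.1.19.0 and CASAVA 1.8.2 and the build TAIR10, and the strand setting of the counting is not given in the sources used here. The authors deposited CPM per gene, a signal scaled by library size, whose columns sum to 972073 to 1045125 in the 5 libraries. In hy5 and SRDX, 100% of values were whole multiples of 1 read (within 0.01 reads), so reads were recovered. A second deposited table, of log2 fold changes against hy5, was not used here.

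limma 3.58.1 (R 4.3.3; trend) was fitted to log2(CPM + 1) with 1 mean for each of 12 groups of all 32 libraries, with Benjamini-Hochberg adjustment over 19685 genes and calls at an adjusted p below 0.05. A filter of 1 CPM in 2 libraries removed 0 genes. The count test on recovered reads (edgeR 4.0.16) called 5294 genes higher and 4886 lower at 4 h. Gene names are from RefSeq for TAIR10.1 (19582 of 19685 matched), and 405 of 417 listed genes were measured. Genes named are HY5, HYH, members of 30 lists, the 10 highest and 10 lowest changes from the dark, and the 5 highest and 5 lowest of the other comparisons, called, reaching a group mean of 5 CPM, and without overlap except against SRDX; ATCG00360 and ATMG00160 were named after their values were seen. Members and lists were chosen with earlier results of these data known. limma was also tried on reads simulated for the 5 libraries alone, with the same spread in both groups. That setting differs from the 12 groups of the reported fit and from the wide spread of the 4 h pair. Alternatives were a pseudocount of 0.25, a mean of 5 CPM, median-of-ratios scaling, a fit on the compared groups alone, the replicate block, edgeR, DESeq2 1.42.0, a fold of 2 and each library left out.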

Additional observations from a re-analysis of the deposited data

Results flagged for a closer look

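For 22 of the 431 named genes the dark to 4 h response differed between hy5 and SRDX by at least 1.5 log2 units in a called test of the difference (limma, adjusted p below 0.05). The response was higher in hy5 for ELIP1 (3.88), BGLU6 (2.78), CGA1 (2.64), CYP82C2 (2.63), GulLO2 (2.38), F3H (2.3), HY5 (2.04, with transgene reads in SRDX), GPX7 (1.87), AT1G62510 (1.8), CRC (1.62) and VSP2 (1.58). It was lower in hy5 for AT1G14960 (-4.15), AT5G35660 (-3.24), CYP716A2 (-3.05), AT5G36130 (-3.02), PEN3 (-2.93), SAUR9 (-2.26), GRF7 (-1.95), XTH19 (-1.75), APR3 (-1.60), XTH5 (-1.59) and PORA (-1.56).

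GulLO2, an oxidase, was at 20.1 to 27.2 CPM in the dark and 28.6 and 32.9 CPM at 4 h in hy5, and fell from 47.6 and 41.7 CPM to 9.81 and 10.2 CPM in SRDX. CRC, a seed storage protein, was at 0.166 to 2.26 CPM in hy5, and its rise there of 0.74 was 0.14 without 4 h replicate 2. In SRDX it was at 8.84 and 8.58 CPM in the dark, and its 4 h minus dark difference was -0.89. VSP2, a jasmonate-responsive storage protein, reached 8.35 and 5.83 CPM in hy5 and 2.15 and 2.14 CPM in SRDX.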

How the results depend on the processing

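From dark to 4 h, leaving out 1 library gave 3719 to 4583 genes higher and 3713 to 4839 lower, and a fold of at least 2 gave 1779 and 1089. For 1.5 h against dark, a fold of 2 gave 888 and 390, and leaving out 1 library 2613 to 2937 and 2388 to 2738. Counts under the other alternatives, the block apart, stayed within 1.5 times of the reported ones except where given here. For 4 h against 1.5 h, a fold of 2 gave 479 and 200, and leaving out 1 library 1481 to 2296 and 1070 to 2310. For hy5 minus SRDX, a fold of 2 gave 282 and 380, the compared groups alone 742 higher, and leaving out 1 library 688 to 1003 and 483 to 833. The cause was not tested. ZAT12 at 4 h turned from -0.71 to 0.14 without 4 h replicate 1 and was -1.55 without replicate 2. In edgeR the hy5 minus SRDX values of NRT2.1 (-0.66), ARR15 (-0.70) and AT5G42760 (-0.93) changed sign, and the cause was not tested. NRT2.1 and ARR15 stood at 0 CPM in both SRDX dark libraries. Under median-of-ratios scaling, edgeR and DESeq2 the median over all genes at 4 h moved by under 0.1. Genes under 3 reads in a library are below what this depth resolves.

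Replicate numbers were not shown to pair the libraries. Same-numbered hy5 libraries at 4 h and in the dark correlated at 0.212 and -0.125, at 4 h and 1.5 h at 0.145 and 0.111, and SRDX ones at -0.0515. With the replicate block, 4071 genes were higher and 4256 lower at 4 h than in the dark, 1673 and 1466 than at 1.5 h, and 411 and 388 in hy5 minus SRDX, while 1.5 h against dark gave 3537 and 3538.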
